A study of Mus musculus with 4 samples.

Results

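The nuclear receptors described here are 44 genes of the mouse family, taken as a named list that leaves out the oestrogen receptor gene Esr1 and the progesterone receptor gene Pgr. They are 44 of 21887 protein-coding genes counted. The list was applied as given: reads were counted over each gene span with 2 kb on either side, and the deposited transcription factor motif scores were taken for the 27 receptors that have a score column. The reads come from single-nucleus ATAC-seq, in which the transposase Tn5 inserts adapters into accessible DNA, so that read counts over a region measure its accessibility and not its transcript level. Nuclei came from wild-type CD1 mouse mammary gland, from cells sorted as EpCAM+ and lineage-negative, at embryonic day 18 (2 fetal libraries) and at 8 weeks of age (2 adult libraries), with no transgene or treatment named at either stage. How many animals gave each library is not given in the sources used here, and each deposited nucleus carries a class number from 1 to 14.

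Nuclear receptors are transcription factors, most of which are switched by small lipid-soluble ligands such as thyroid hormone, retinoic acid, vitamin D, corticosteroids, fatty acids and oxysterols. Many bind repeats of the hexamer AGGTCA as partners of a retinoid X receptor (Rxra, Rxrb or Rxrg), the corticosteroid receptors bind repeats of AGAACA, and orphan members such as the NR4A group act without a known classical ligand. In the mammary gland, glucocorticoid action is needed for milk production, and vitamin D and retinoid receptors are known for roles in ductal growth and differentiation.

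The 4 libraries held 882, 1695, 2465 and 2804 listed nuclei (fetal 1, fetal 2, adult 1, adult 2) with 6028168, 15801908, 13588107 and 19304830 reads, and no cell barcode was shared between libraries. Between 22.0% and 24.7% of a library's reads lay in the deposited promoter regions. Markers of the sorted lineages followed the class numbers: all 8 basal markers were raised in adult classes 1 and 8 and 5 of 8 in fetal class 4, which are called basal-like. Of 7 luminal progenitor markers, 6 were raised in adult class 3, 5 in adult class 7 and 5 in fetal class 9, called luminal progenitor-like in the adult and luminal-like in the fetus. Of 8 mature luminal markers, 7 were raised in class 2 and 6 in class 11 (mature luminal-like, adult), and all 8 stromal markers in class 6, which held 23, 33, 82 and 75 nuclei despite the epithelial sort. Stromal markers were also raised in part in the basal-like classes: 4 of 8 in class 8, 3 in class 4 and 2 in class 1. No class had more than 2 of 4 endothelial or 2 of 5 immune markers raised. The 2 adult clusters of a lineage differed in promoter share: 25.8% and 25.5% of reads in class 1 against 18.9% and 17.5% in class 8, and 27.7% and 26.4% in class 7 against 21.4% and 20.9% in class 3 (adult 1 and adult 2). Stage and any difference in handling between fetal and adult material cannot be told apart in this design.

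Promoter sequences were taken from RefSeq (GRCm38.p6) as the 250 bases before each annotated start. Of the 44 receptors, 40 had at least one entry (60 entries in all). Thra, Hnf4g, Nr3c1 and Nr5a1 had none. The first 3 below are shown because the NR4A promoters share a run of one motif, and the last 2 because Rxrg and Thrb had the largest rise and the largest fall in the fetus among the receptor promoter regions tested below. Capitals mark matches on either strand to AGGTCA (the receptor hexamer), AGAACA (the corticosteroid hexamer), CACGTG (an E-box of the clock factors) or TGACG (the core of the cAMP response element), and each sequence reads 5′ to 3′ along the gene's strand.
Nr4a1: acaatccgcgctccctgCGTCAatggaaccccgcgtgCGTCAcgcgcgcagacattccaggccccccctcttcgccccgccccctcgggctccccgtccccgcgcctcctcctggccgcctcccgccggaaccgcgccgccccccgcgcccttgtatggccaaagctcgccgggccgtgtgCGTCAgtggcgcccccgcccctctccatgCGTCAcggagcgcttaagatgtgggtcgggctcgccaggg
Nr4a2: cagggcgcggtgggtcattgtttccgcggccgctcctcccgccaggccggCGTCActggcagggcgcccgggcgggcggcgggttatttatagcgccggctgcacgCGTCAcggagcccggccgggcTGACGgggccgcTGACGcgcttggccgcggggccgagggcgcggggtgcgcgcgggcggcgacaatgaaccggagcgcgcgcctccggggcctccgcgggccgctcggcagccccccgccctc
Nr4a3: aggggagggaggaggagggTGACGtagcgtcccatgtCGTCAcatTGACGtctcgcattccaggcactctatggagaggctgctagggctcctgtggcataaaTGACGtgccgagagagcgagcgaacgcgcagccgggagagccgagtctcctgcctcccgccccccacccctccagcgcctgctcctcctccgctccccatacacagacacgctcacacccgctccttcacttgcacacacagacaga
Thrb: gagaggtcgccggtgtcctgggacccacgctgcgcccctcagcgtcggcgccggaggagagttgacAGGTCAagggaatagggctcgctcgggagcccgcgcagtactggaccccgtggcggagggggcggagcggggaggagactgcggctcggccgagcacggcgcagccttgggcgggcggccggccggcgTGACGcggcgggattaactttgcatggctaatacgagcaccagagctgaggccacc
Rxrg: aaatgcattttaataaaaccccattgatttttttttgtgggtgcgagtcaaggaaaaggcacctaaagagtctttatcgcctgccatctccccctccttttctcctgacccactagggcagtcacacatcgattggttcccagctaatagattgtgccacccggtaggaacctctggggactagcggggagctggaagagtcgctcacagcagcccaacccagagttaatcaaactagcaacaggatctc
They lie at chr15:101266596-101266845 (Nr4a1, plus strand), chr2:57124004-57124253 (Nr4a2, minus strand), chr4:48045055-48045304 (Nr4a3, plus strand), chr14:17660710-17660959 (Thrb, plus strand) and chr1:167598112-167598361 (Rxrg, plus strand), each directly upstream of an annotated transcript start. The Nr4a1, Nr4a2 and Nr4a3 promoters each held 4 matches to TGACG, which reads CGTCA on the other strand. Of all 32851 promoter entries 45 (0.137%) held 4 or more, and of the 60 receptor entries only those 3 did. At least 1 TGACG match was found in 13 of the 60 receptor entries (21.7%) and in 17.8% of all entries. AGGTCA was found in 11 receptor entries (18.3%) against 14.02% of all, AGAACA in 4 (6.67%) against 16.1%, and CACGTG in 5 (8.33%) against 6.02%. In the Thrb sequence AGGTCA began 184 bases and TGACG 56 bases before the start, and the Rxrg sequence shown held no match to any of the 4. Rxrg has a second entry in the table, at chr1:167618015-167618264, in which AGGTCA began 88 bases before the start. Thrb also has a second entry, at chr14:17981394-17981643, with 2 matches to AGAACA, 1 to CACGTG and 0 to AGGTCA and TGACG. The receptor entries had a median GC content of 59.2%, against 52.4% for all entries.

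Of the 44 receptor gene spans, 9 differed between fetal and adult libraries, 6 higher and 3 lower in the fetus. Over all 18808 gene spans tested, 22.2% passed the same test (edgeR quasi-likelihood test, adjusted p under 0.05), so the receptors' 20.5% was close to the background. As higher in the fetus 11.3% of all spans passed, and as lower 10.9%. The median log2 fold change of the receptors was 0.09, against 0.01 for all genes, where positive values are higher in the fetus. Levels are given as CPM, reads per 1000000 of all reads in tested gene spans after TMM scaling. The p-values weigh each difference against the spread between libraries, 2 a stage. That spread is estimated with information shared over the tested gene spans.

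The 3 receptors lower in the fetus were Vdr, Nr3c2 and Nr1d1, which was the 1 of 4 clock receptors to pass. Vdr, which binds active vitamin D, stood at 84.9 and 97.2 CPM at the fetal stage and at 162 and 150 CPM at the adult stage. Its log2 fold change was −0.77 (SE 0.11, edgeR adjusted p = 0.000464). Both fetal values lay well below both adult values.
Nr1d1, the haem-binding clock repressor REV-ERBα, stood at 84.9 and 86.2 CPM in the fetus and at 142 and 122 CPM in the adult (log2 fold change −0.63, SE 0.12, edgeR adjusted p = 0.0021). The Nr1d1 window overlaps the 3′ end of Thra on the opposite strand, and ATAC-seq reads cannot be assigned to a strand. Thra itself, a thyroid hormone receptor, stood at a log2 fold change of −0.01 (SE 0.12).
Nr3c2, the mineralocorticoid receptor, stood at 192 and 220 CPM in the fetus and 274 and 314 CPM in the adult (log2 fold change −0.51, SE 0.11, edgeR adjusted p = 0.00437). Without fetal replicate 1 the Nr3c2 value was −0.42 with an adjusted p of 0.0631. Its paralogue Nr3c1, the glucocorticoid receptor, did not pass the test: 126 and 127 CPM in the fetus, 142 and 143 CPM in the adult, a log2 fold change of −0.17 with an edgeR adjusted p of 0.265.

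The receptors higher in the fetus included 2 of the retinoid pathway. Rarb, a retinoic acid receptor whose gene is itself induced by retinoic acid, stood at 322 and 354 CPM in the fetus and 195 and 235 CPM in the adult (log2 fold change 0.65, SE 0.11, edgeR adjusted p = 0.000858). Rxrg, the RXR partner with the most restricted tissue range, stood at 31.4 and 22.1 CPM against 13.7 and 10.0 CPM (log2 fold change 1.16, SE 0.23, edgeR adjusted p = 0.00289). Both genes were higher in each fetal library than in either adult one. The Rarb window overlaps Top2b. Rara, a retinoic acid receptor of wide expression, stood at 309, 289, 261 and 229 CPM (fetal 1, fetal 2, adult 1, adult 2) and just missed the threshold (log2 fold change 0.29, edgeR adjusted p = 0.0522). Rarg, Rxra and Rxrb had log2 fold changes of 0.19, 0.06 and 0.17 and did not pass.

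The other 4 receptors higher in the fetus are orphans. Nr4a1, an immediate-early gene induced by many stimuli, stood at 113 and 101 CPM in the fetus and 63.3 and 52.3 CPM in the adult (log2 fold change 0.89, SE 0.13, edgeR adjusted p = 0.000383). The fetal and adult values were well apart. Its 2 paralogues did not pass: the log2 fold changes of Nr4a2 and Nr4a3 were 0.16 and 0.02. Nr2e1, best known from neural stem cells, stood at 31.4 and 26.0 CPM against 16.8 and 14.1 CPM (log2 fold change 0.88, SE 0.19, edgeR adjusted p = 0.00424).
Esrra, an oestrogen-related receptor that acts on mitochondrial genes, stood at 92.4 and 92.1 CPM in the fetus and 78.3 and 62.2 CPM in the adult (log2 fold change 0.40, SE 0.13, edgeR adjusted p = 0.0427). Nr5a1, known from the adrenal gland and gonads, stood at 28.6 and 31.2 CPM against 18.4 and 21.3 CPM (log2 fold change 0.60, SE 0.17, edgeR adjusted p = 0.0208). These were the least firm of the 9. Esrra lost its call without adult replicate 2 (0.22, adjusted p = 0.283) and without either fetal library (adjusted p = 0.148 and 0.206), and Nr5a1 without adult replicate 1 (0.50, adjusted p = 0.0785) or fetal replicate 2 (0.52, adjusted p = 0.168). With DESeq2 the adjusted p was 0.0904 for Esrra and 0.0641 for Nr5a1. The Esrra window also holds Catsperz, Kcnk4, Prdx5 and Trmt112.

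Classes of like lineage were then compared across stages, which limits the part of lineage mix only as far as the deposited classes allow. These classes were drawn from the same reads and held few nuclei of the other stage. Fetal class 4 had 5 of 8 basal markers raised against all 8 in classes 1 and 8. Stage and a difference in cell state between the paired classes cannot be told apart. Among basal-like nuclei (fetal class 4 against adult classes 1 and 8), 2 of 41 receptors passed, 1 in each direction, where 6.16% of all 16476 genes did (2.98% higher and 3.18% lower in the fetus). Vdr stood at 79.2 and 68.5 CPM in fetal basal-like nuclei and at 256 and 183 CPM in adult ones (log2 fold change −1.58, SE 0.21, edgeR adjusted p = 1.9e-06). Nr5a2, an orphan receptor of liver and early embryo, was higher in the fetus, 82.0 and 76.7 CPM against 31.7 and 32.7 CPM (log2 fold change 1.29, SE 0.28, edgeR adjusted p = 0.00239). For both genes the fetal and adult libraries were far apart. With class 8 alone as the adult side, the Nr5a2 value was 0.94 with an adjusted p of 0.156.

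Among luminal nuclei (fetal class 9 against adult luminal progenitor-like classes 3 and 7), 10 of 42 receptors passed, 6 lower and 4 higher in the fetus, where 15.8% of all 17376 genes did (7.75% higher and 8.05% lower). Vdr was again lower in the fetus, at 76.7 and 104 CPM against 210 and 201 CPM (log2 fold change −1.16, SE 0.14, edgeR adjusted p = 5.93e-06). Rora, a clock receptor that opposes Nr1d1 at shared sites, stood at 210 and 234 CPM against 373 and 364 CPM (log2 fold change −0.73, SE 0.11, edgeR adjusted p = 6e-05). Nr4a1 was higher in the fetus, at 102 and 89.6 CPM against 61.8 and 54.3 CPM (log2 fold change 0.72, SE 0.15, edgeR adjusted p = 0.00261). Of the 10, these 3 kept their call without each library in turn and with either adult cluster alone as the adult side.
The other 7 moved less. Nr1d1 had a log2 fold change of −0.61 (99.2 and 86.8 CPM in the fetus, 156 and 125 in the adult) and Ppard, the ubiquitous fatty acid receptor, −0.53 (158 and 131 against 223 and 191 CPM). Nr3c2 stood at −0.48 (185 and 220 against 263 and 305 CPM) and Thrb, the second thyroid hormone receptor, at −0.46 (140 and 161 against 200 and 214 CPM). On the other side Rarb stood at 0.41 (324 and 380 against 247 and 284 CPM), Rara at 0.42 (332 and 301 against 251 and 219 CPM) and Esrrb, a pluripotency factor of the oestrogen-related group, at 0.67 (65.4 and 70.2 against 47.3 and 38.4 CPM). For the 7 the SE lay between 0.11 and 0.18 and the edgeR adjusted p between 0.0051 and 0.0143.
Each of these 7 lost its call under some left-out library. With class 3 alone as the adult side Rarb (0.12), Ppard (−0.21), Nr1d1 (−0.09) and Esrrb (0.17) no longer passed, and with class 7 alone Thrb (−0.26) and Rara (0.25) did not. With DESeq2 the adjusted p of Esrrb was 0.0561. The promoter share differs between those clusters, as given above, and its part in the result was not tested.

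**Figure D1:**
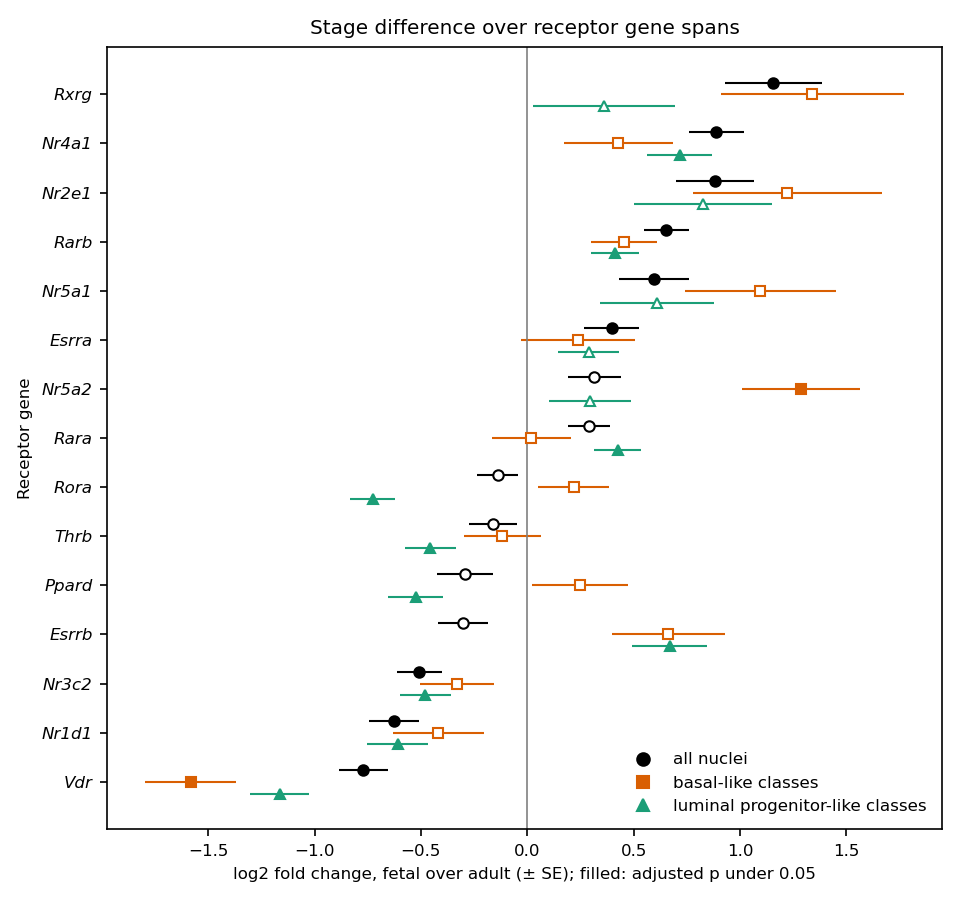
Log2 fold change of accessibility over the gene span, fetal over adult (x axis, ± SE), for each receptor that passed in all nuclei, in basal-like classes or in luminal progenitor-like classes (y axis). Filled symbols passed the edgeR test at an adjusted p under 0.05; Vdr is the one receptor filled on the left in all 3 comparisons, at −0.77, −1.58 and −1.16.

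Whether a stage difference itself differed between the lineages was tested with an interaction term. Over 17068 genes 6.08% passed, and 2 of 41 receptors did. For Rora the basal-like change minus the luminal one was 0.91 on the log2 scale (SE 0.17, edgeR adjusted p = 7.39e-06): its fitted stage difference was 0.22 in basal-like nuclei and −0.73 in luminal ones. For Ppard it was 0.77 (SE 0.21, edgeR adjusted p = 0.00889), with 0.25 in basal-like and −0.53 in luminal nuclei. The difference for Vdr did not pass.

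Deposited promoter regions lay within 1 kb of an annotated start for 29 receptors, and none was assigned to the other 15. Among those 15, Thra, Hnf4g, Nr3c1 and Nr5a1 had no promoter entry, so no start to search from. Of the 32 regions of the 29 receptors, 8 differed by stage, 5 higher and 3 lower in the fetus. Over all 18570 promoter regions 21.5% passed (10.5% higher and 11% lower). CPM is here reads per 1000000 of those in tested promoter regions. The largest difference was at the Rxrg promoter region, chr1:167597881-167598880 (mm10), which spans the annotated start and the sequence shown above. It stood at 38.4 and 27.5 CPM in the fetus and 8.78 and 9.18 CPM in the adult (log2 fold change 1.84, SE 0.32, edgeR adjusted p = 1.31e-05). Both fetal libraries were high and both adult ones low. Within fetal nuclei the Rxrg region stood at 74.2 and 48.5 CPM in basal-like class 4, from 15 and 29 reads, and at 33.2 and 19.4 CPM in luminal-like class 9. No adult lineage exceeded 14.2 CPM in either library.

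The Thrb promoter region, chr14:17660293-17661292, was lower in the fetus, at 88.4 and 70.3 CPM against 127 and 141 CPM (log2 fold change −0.79, SE 0.15). The Nr4a3 region, chr4:48044523-48045522, was lower too, at 108 and 114 against 173 and 162 CPM (−0.59, SE 0.13). The Nr4a1 region, chr15:101266199-101267198, was higher in the fetus, at 121 and 115 against 87.8 and 64.1 CPM (0.64, SE 0.15). Of the 3 paralogues whose promoters share the TGACG run, Nr4a1 and Nr4a3 thus stood on opposite sides, and the Nr4a2 region did not pass (log2 fold change −0.03, edgeR adjusted p = 0.935). The Esrra region, chr19:6921384-6922383, was higher in the fetus, at 155 and 139 against 107 and 95.1 CPM (0.53, SE 0.13).
The last 3 were Nr2e1 at 22.6 and 11.9 against 8.78 and 4.95 CPM (1.28, SE 0.44), Nr2f1, a COUP-TF receptor of neural and vascular development, at 32.2 and 20.7 against 9.99 and 13.9 CPM (1.08, SE 0.33), and Nr2c1, a testicular orphan receptor, at 45.9 and 45.4 against 69.1 and 69.0 CPM (−0.60, SE 0.19). A second Nr2f1 promoter region, chr13:78198692-78199691, lies nearer an annotated start and did not pass. It stood at 35.6 and 38.0 against 26.3 and 41.2 CPM (0.12, edgeR adjusted p = 0.769). Rxrg, Thrb, Nr4a3 and Esrra passed without each library in turn. Nr4a1 did not pass without adult replicate 2 (0.42, adjusted p = 0.0916), and Nr2e1, Nr2f1 and Nr2c1 each failed without 2 or 3 of the 4 libraries. With DESeq2 the adjusted p of the Nr2e1 region was 0.0794. Nr1d1 and Rarb passed over their gene spans but not at their promoter regions. The Nr1d1 region stood at 80.9 and 89.6 CPM in the fetus and 91.8 and 86.7 CPM in the adult (−0.05, edgeR adjusted p = 0.856). The 2 Rarb regions had log2 fold changes of 0.30 and 0.16 (edgeR adjusted p = 0.359 and 0.826).

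The 38 receptors that hold any had 427 distinct distal regions, of which 369 were tested and 148 (40.1%) differed by stage, 74 in each direction. Of all 122865 distal regions 35.3% passed, 16.6% higher and 18.8% lower in the fetus. The 148 lay in 22 receptors, and 15 of these held regions of both directions. Rarb had 13 regions higher and 3 lower in the fetus of 32 tested, Rara 7 higher and 0 lower of 20, and Nr4a1 5 higher and 1 lower of 6. In contrast Rora had 5 higher and 14 lower of 45, Vdr 1 higher and 6 lower of 14, and Ppard 2 higher and 7 lower of 16. Esrrg (10 higher and 7 lower of 40), Nr3c2 (4 and 8 of 28) and Thrb (6 and 7 of 26) were mixed.

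**Figure D2:**
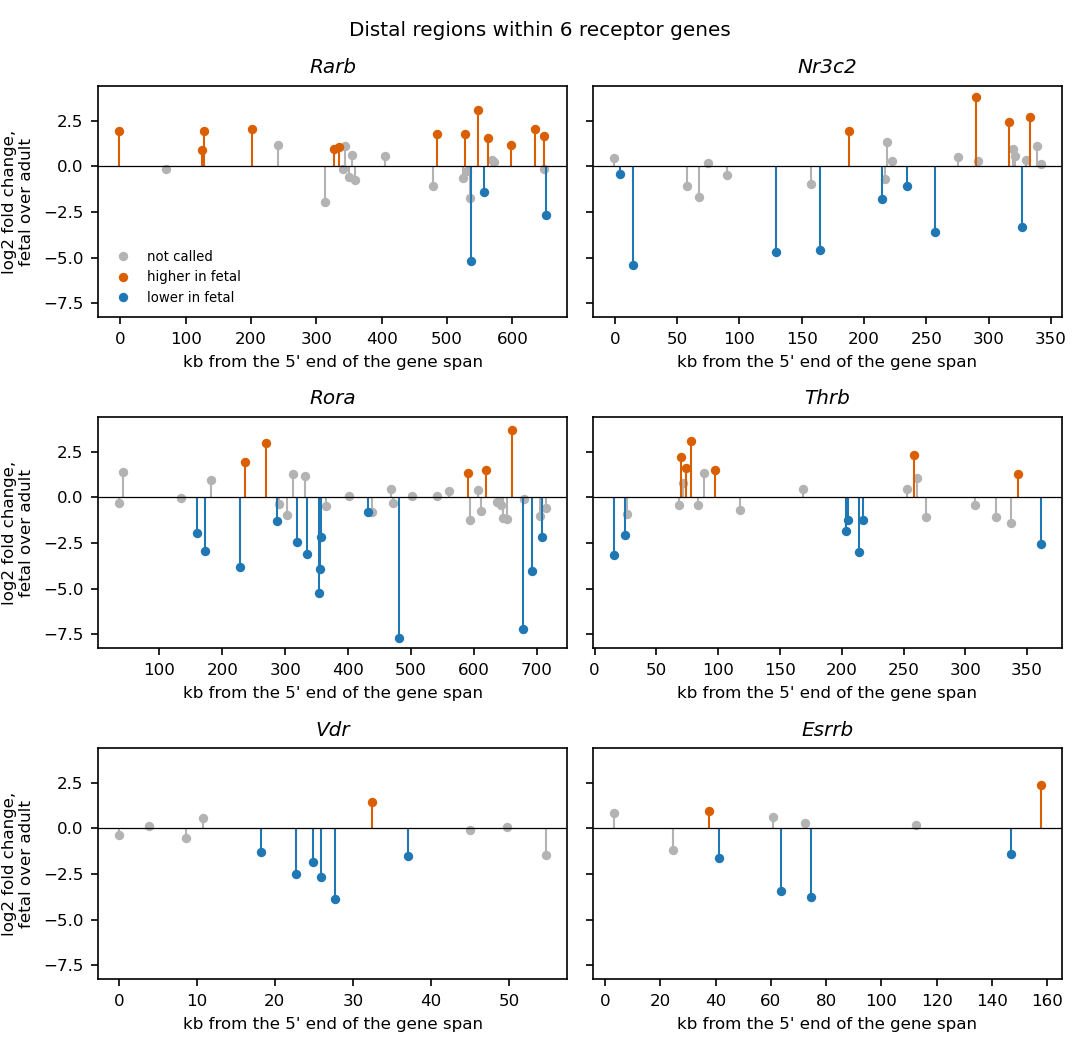
Log2 fold change, fetal over adult (y axis), of each tested distal region against its distance from the 5′ end of the gene span in kb (x axis), for Rarb, Nr3c2, Rora, Thrb, Vdr and Esrrb. Orange regions were higher and blue regions lower in the fetus at an edgeR adjusted p under 0.05, and grey ones did not pass; in Vdr 6 of 14 are blue and 1 is orange.

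The regions of Vdr that were lower in the fetus lay between 18.2 and 37.0 kb from the 5′ end, inside the gene. The region at chr15:97881877-97882876, 25.9 kb from the 5′ end, held 6 and 25 fetal reads (fetal 1 and fetal 2) and 98 and 200 adult ones (log2 fold change −2.64, SE 0.36). By lineage this Vdr region was open in adult luminal progenitor-like nuclei at 28.6 and 42.4 CPM of distal reads and in basal-like nuclei at 15.8 and 19.2 CPM, against at most 3.92 CPM in fetal basal-like or luminal-like nuclei. Its neighbour 37.0 kb from the 5′ end was instead highest in adult basal-like nuclei, at 69.0 and 46.4 CPM against 15.0 and 16.1 CPM in luminal progenitor-like ones. These 2 regions were chosen after their values were seen. The region at the annotated start of Vdr, 0.064 kb from the 5′ end, did not pass (91, 244, 310 and 348 reads).

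The 10 largest differences among distal regions with at least 20 reads a library on average were found in 6 receptors, and 9 of the 10 were lower in the fetus. The count of 9 is no result on direction. A minimum in raw reads favours regions high in the adult, whose libraries together held more reads. All 148 regions that passed split into 74 in each direction. Ratios are those of read shares, adult over fetal unless stated, with exact 95% intervals that take every read as an independent count. Where reads come from the same DNA fragment these intervals are too narrow, and they leave out the spread between libraries. The largest was inside Nr3c2, at chr8:76912259-76913258, 14.7 kb from the 5′ end, where 2 and 4 fetal reads compared with 174 and 233 adult ones, 43.4-fold more (19.8 to 119). In the adult it was open in mature luminal-like nuclei, at 57.6 and 58.6 CPM, and hardly in basal-like (2.88 and 3.71 CPM) or luminal progenitor-like nuclei (5.01 and 3.90 CPM). A pair of further Nr3c2 regions, at chr8:77026851-77027850 and chr8:77062252-77063251, held 0 and 3 against 40 and 88 reads (27.3-fold, 9.13 to 134) and 0 and 2 against 29 and 50 reads (25.2-fold, 6.76 to 212).
A region of Rarb at chr14:16544586-16545585 held 2 and 0 reads in the fetus and 59 and 65 in the adult (39.6-fold, 10.7 to 331), against the direction of the gene span as a whole. It was open in mature luminal-like nuclei (19.9 and 9.47 CPM) and in adult stromal-like class 6 (21.1 and 31.0 CPM, from 3 and 6 reads). In Nr2c1, chr10:94174312-94175311 held 9 and 2 against 178 and 223 reads (23.3-fold, 12.9 to 47.1). That region was open in mature luminal-like (47.1 and 42.3 CPM) and luminal progenitor-like nuclei (21.0 and 29.3 CPM) of the adult.

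Rora and Esrrb each held 2 of the 10. The Rora regions chr9:69345117-69346116 and chr9:68881457-68882456 held 0 and 5 against 61 and 62 reads (15.7-fold, 6.56 to 49.3) and 2 and 2 against 37 and 57 reads (15.0-fold, 5.68 to 56.3). In adult mature luminal-like nuclei the first Rora region stood at 21.5 and 17.7 CPM and the second at 13.4 and 11.8 CPM. In luminal progenitor-like nuclei, where the Rora span was compared by stage above, they stood at 1.00 and 0 CPM and at 0 and 1.95 CPM. The Esrrb regions chr12:86435100-86436099 and chr12:86424174-86425173 held 0 and 13 against 125 and 137 reads (12.9-fold, 7.40 to 24.5) and 2 and 3 against 37 and 50 reads (11.1-fold, 4.59 to 35.1). The first Esrrb region stood at 45.0 and 37.9 CPM in adult mature luminal-like nuclei. All 4 were low in both fetal libraries.
The one region of the 10 that was higher in the fetus lay in Nr4a3, at chr4:48069347-48070346, with 43 and 93 reads in the fetus and 6 and 6 in the adult (fetal over adult 17.7-fold, 9.83 to 35.2). It was highest in fetal class 5, at 48.3 and 33.5 CPM, a fetal class with 4 of 7 luminal progenitor markers raised, and stood at 9.79 and 3.13 CPM in basal-like class 4. The fetal libraries held 1 and 2 nuclei of mature luminal-like class 2 and 2 and 5 of class 11, against 805 and 714 and against 197 and 360 in the adult, so for regions open mainly in those classes stage and lineage cannot be told apart. No genome sequence of these regions was used here.

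**Figure D3:**
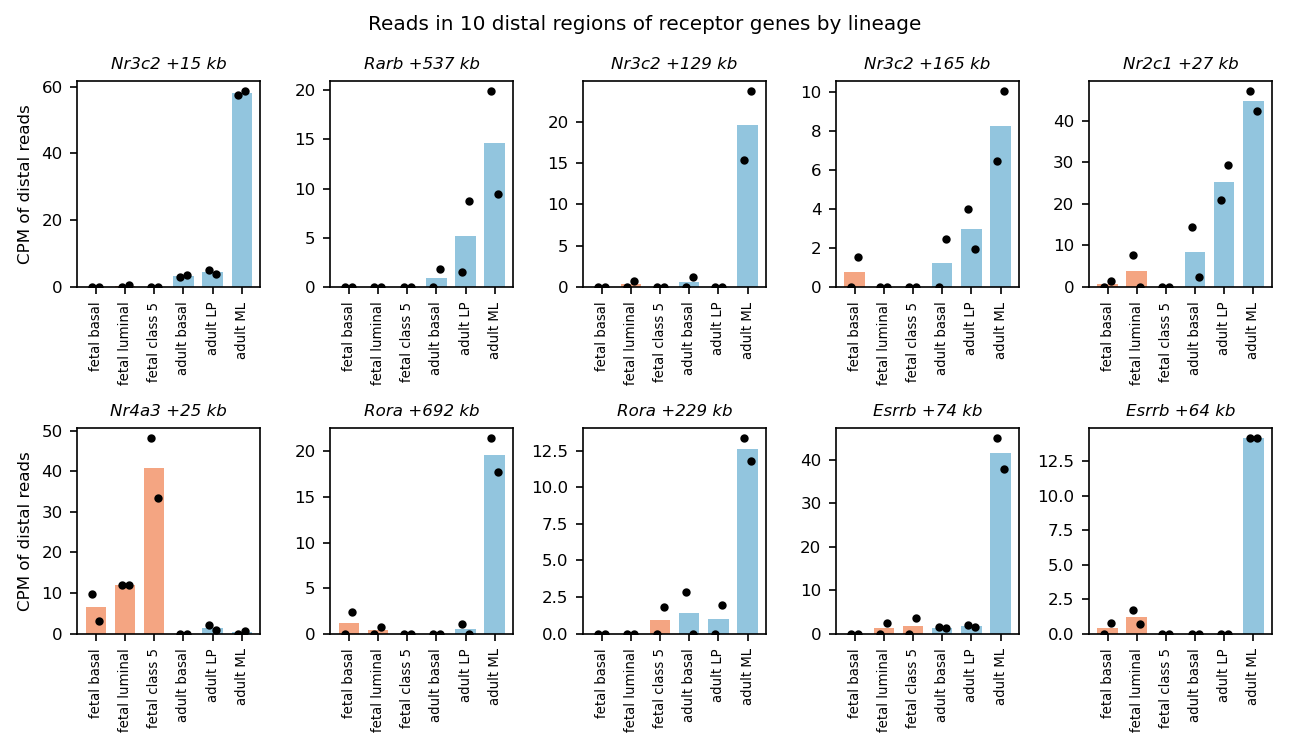
Level of each of the 10 distal regions, in reads per 1000000 of the distal reads of the same nuclei (y axis), by lineage (x axis; LP is luminal progenitor-like and ML mature luminal-like), with bars at the mean of 2 libraries and points for the libraries. Panel titles give the gene and the distance from the 5′ end of its span; the Nr3c2 region at 14.7 kb is high in ML at 57.6 and 58.6 CPM, and the Nr4a3 region is high in fetal class 5.

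Motif scores measure how much more or less accessible the peaks holding a motif are in a nucleus than matched peaks, and many receptors have nearly the same motif, so a score belongs to a motif and not to one protein. Of 44 receptors 27 had a score column, with 25 distinct columns since Nr1d1 equals Nr1d2 and Nr1h2 equals Nr1h3. All 27 were lower in the fetus by limma on library means, where 67.9% of all 427 motifs passed and 35.6% passed as lower. The Rarg motif fell most, with mean scores of −0.64 and −0.79 (fetal 1 and fetal 2) and 0.35 and 0.38 (adult 1 and adult 2) (difference −1.08, SE 0.06, limma adjusted p = 0.000109). Nr2f1 (−1.05), Nr2f2 (−1.01), Rarb (−1.005), Nr2f6 (−0.97), Pparg (−0.96) and Rara (−0.95) were nearly as low, and the Rarg motif ranked 35 from the lowest of the 427.

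The smallest falls were those of Vdr (−0.17, limma adjusted p = 0.0192), Nr3c2 (−0.21), Nr3c1 (−0.24) and Nr4a2 (−0.24). Each of those 4 missed the threshold without at least 1 library; the other 23 passed without each in turn. Between these ends stood the motifs of the RXR partners (Rxra and Rxrb, −0.89), the clock group (Rora −0.85, Nr1d1 −0.82), the oestrogen-related group (Esrrg −0.76, Esrra −0.73), the thyroid hormone receptor Thra (−0.57) and the oxysterol receptor Nr1h3 (−0.54). Since all 27 motifs were lower in the fetus, whether a gene and its motif shared a direction rested on the gene span alone. Rarb was higher in the fetus over its span and lower by its motif. Vdr was lower by both, with the smallest motif fall.
Within lineages the motifs were again lower in the fetus. Between fetal and adult basal-like nuclei 25 of the 27 were lower and 0 higher with no overlap of libraries, against 44.5% and 30.2% of all motifs, and Nr2c2 and Nr4a2 were neither lower nor higher. Between fetal luminal-like and adult luminal progenitor-like nuclei 27 of 27 were lower and 0 higher, against 43.3% and 40.7% of all motifs. The largest of these differences were Nr2f1 in basal-like (−0.83) and Nr2f2 in luminal nuclei (−0.74).

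Lineages were compared in each library without a test, since the deposited classes were drawn from the same reads. In the adult 25 of the 27 motifs were lower and 2 higher in basal-like than in luminal progenitor-like nuclei in both libraries, against 49.4% and 39.3% of all motifs. From luminal progenitor-like nuclei to those of the mature luminal-like classes, 21 motifs were lower in the former and 4 higher, against 51.3% and 38.9%. In the fetus 25 were lower and 0 higher in basal-like than in luminal-like nuclei, against 48.2% and 30.7%. The widest step was that of Pparg, a receptor of fat and milk lipid synthesis, whose motif stood at 0.94 and 1.05 in mature luminal-like, −0.02 and −0.14 in luminal progenitor-like and −0.27 and −0.39 in basal-like nuclei (adult 1 and adult 2). The Ppard, Vdr, Nr2c2 and Nr3c1 motifs were instead highest in luminal progenitor-like nuclei. In stromal-like class 6 the Nr2c2 and Ppard motifs lay apart, at 0.84 and −0.69.
Across all 7846 nuclei the scores of Esrra and Esrrg correlated at r = 0.88, of Nr2c1 and Nr2f6 at 0.87, of Rara and Rarb at 0.83 and of Nr2f1 and Nr2f2 at 0.83, whereas the nearest receptor motif to Nr3c1 reached 0.07 and to Vdr 0.09. These values are descriptions only, since nuclei share libraries and depth, and like motifs share peaks.

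**Figure D4:**
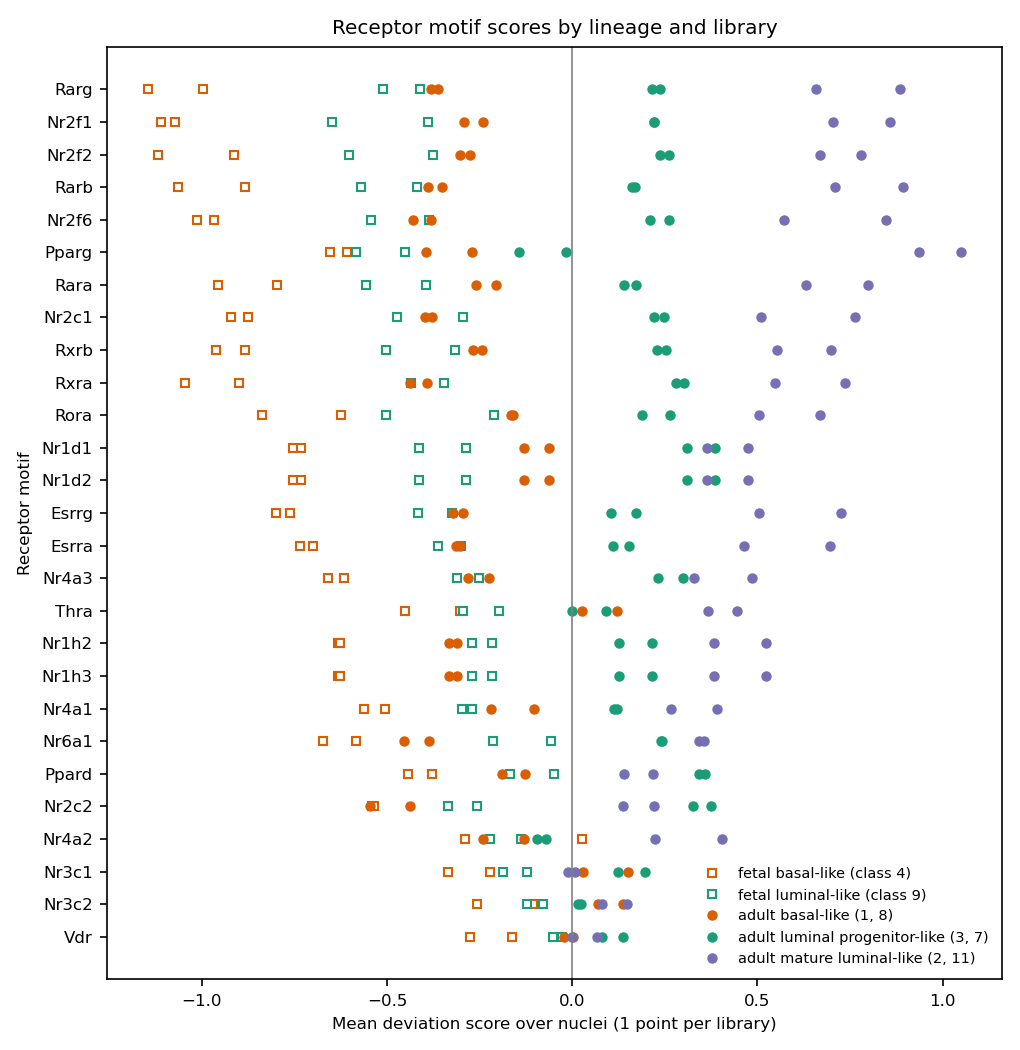
Mean motif deviation score over nuclei (x axis, no unit) for the 27 receptor motifs (y axis, ordered by the fetal minus adult difference), with 1 point per library and lineage. Fetal basal-like nuclei (open orange squares) lie left and adult mature luminal-like nuclei lie right for most motifs; for Pparg the mature luminal-like libraries stand at 0.94 and 1.05.

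Over gene spans the adult lineages were set apart by a smaller group of receptors. By a rule of at least 1.5-fold in both adult libraries on CPM with 2 added, 5 of 41 receptors differed between basal-like and luminal progenitor-like nuclei, 2 higher and 3 lower in basal-like ones, where 16.8% of all 16982 genes did (8.31% higher and 8.47% lower). Ppard stood at 116 and 75.8 CPM in basal-like and 219 and 189 CPM in luminal progenitor-like nuclei. The oxysterol receptor Nr1h3 (60.1 and 48.7 against 106 and 80.2 CPM) and the orphan Nr2f6 (51.1 and 51.1 against 95.4 and 97.8 CPM) were also lower in basal-like nuclei. The bile acid receptor Nr1h4 (55.2 and 79.3 against 28.8 and 48.3 CPM) and Nr2f2, a COUP-TF receptor of mesenchyme and veins (115 and 126 against 75.4 and 78.9 CPM), were higher there. The 8 stromal markers summed to 281 and 296 CPM in basal-like classes 1 and 8, 226 and 171 CPM in classes 3 and 7 and 860 CPM in class 6, with none at 0 in those 5 classes, and their part in this result was not tested.

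Between luminal progenitor-like nuclei and those of the mature luminal-like classes 8 of 41 receptors differed, 4 in each direction, against 15.4% of all genes (7.03% higher and 8.33% lower in luminal progenitor-like ones). Esrrb was the widest, at 46.6 and 38.1 CPM against 129 and 126 CPM, 2.93-fold higher in mature luminal-like nuclei. Hnf4a, a hepatocyte regulator (13.2 and 16.3 against 34.2 and 33.1 CPM), Nr2f2 (75.3 and 78.8 against 115 and 127 CPM) and Nr5a2 (37.3 and 38.9 against 67.9 and 65.9 CPM) were also higher in mature luminal-like nuclei. The same direction in both libraries follows from the rule by which these 4 were picked.
Higher in luminal progenitor-like nuclei were Vdr (207 and 200 against 111 and 108 CPM), Rora (367 and 361 against 214 and 204 CPM), Rarb (243 and 282 against 139 and 177 CPM) and Nr2e3, a photoreceptor regulator (44.6 and 42.7 against 27.7 and 26.7 CPM). In the fetus 1 of 41 receptors differed between basal-like and luminal-like nuclei, against 7.45% of all genes (4.05% higher and 3.39% lower in basal-like nuclei): Nr2f6, at 47.1 and 35.3 against 92.6 and 66.8 CPM. Nr2f6 was thus lower in basal-like nuclei at both stages.

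**Figure D5:**
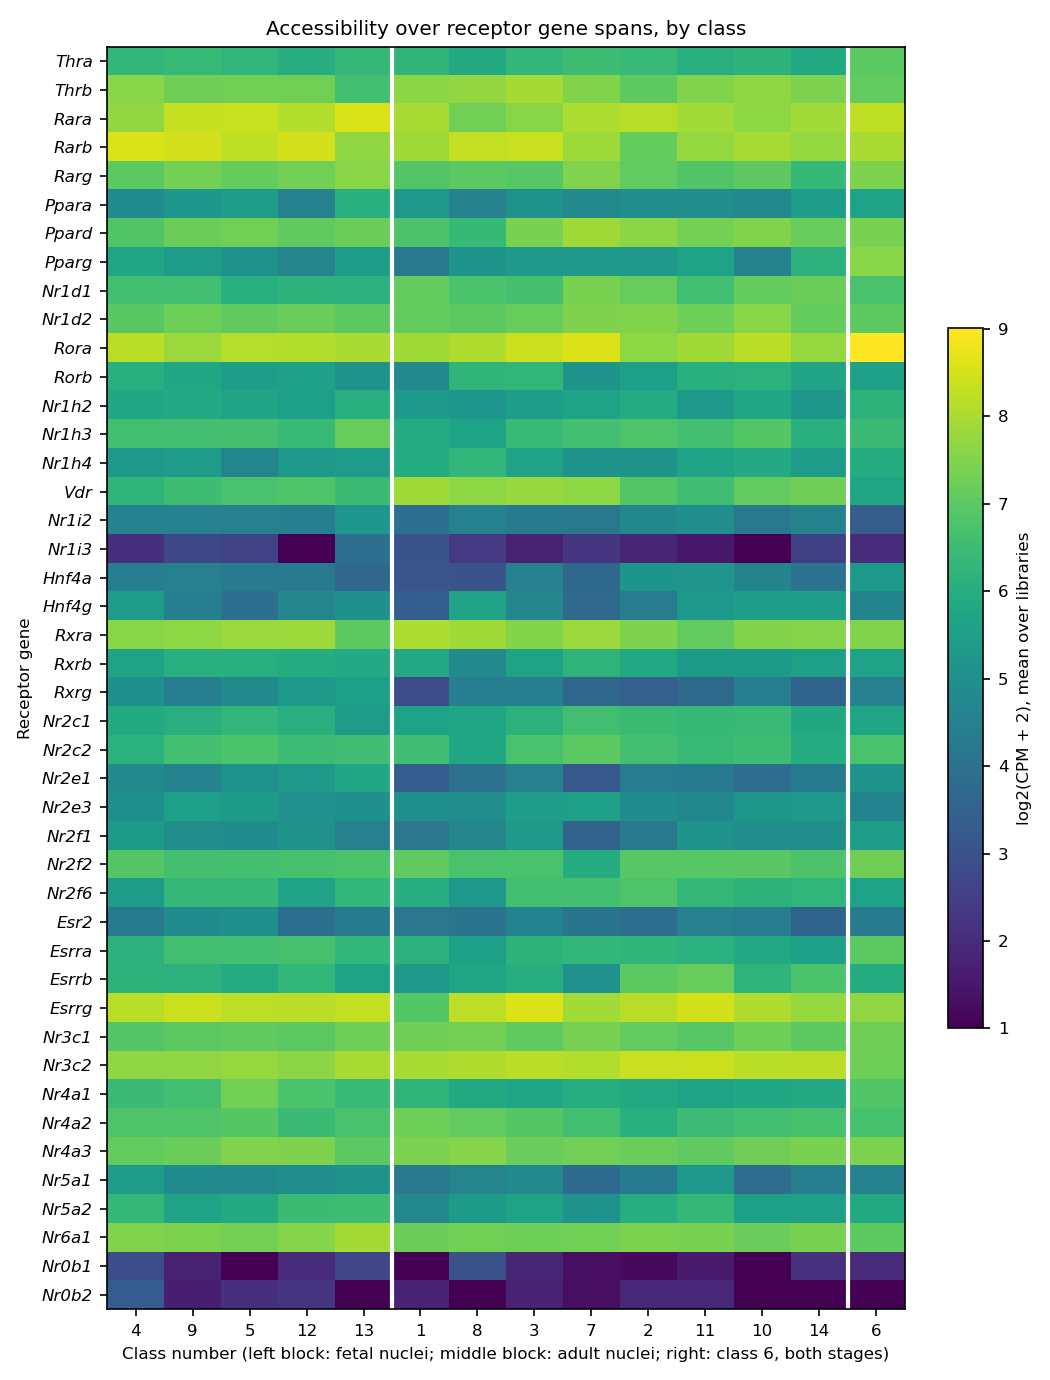
Mean log2(CPM + 2) over the gene span (colour) of the 44 receptors (rows) in each deposited class (columns; fetal, then adult, then class 6 from both stages). Long genes collect more reads, so colours compare classes along a row; Vdr is brighter in adult classes 1, 3, 7 and 8 than in every fetal class, and Pparg is brightest in class 6.

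Across the 13 classes other than class 6, mean levels of Vdr over 2 libraries ranged from 73.9 CPM in fetal class 4 to 231 CPM in adult class 1, and the 4 highest classes were the adult basal-like and luminal progenitor-like ones. Nr4a1 was highest in fetal class 5, at 163 and 148 CPM, against 82.3 and 90.7 CPM in class 4 and 104 and 90.0 CPM in class 9. Nr3c1 ranged only from 116 CPM in class 4 to 162 CPM in class 7. Rarb was highest in fetal class 4 (374 CPM) and lowest in mature luminal-like class 2 (138 CPM). The class means of Nr0b1, Nr0b2 and Nr1i3 over their 2 libraries reached at most 5.97, 7.98 and 13.1 CPM.
Per kb of window and with class 6 left out, taking each gene in its highest class, the highest level was that of Nr1d1 in class 7 (15.3 and 13.7 CPM per kb), then Nr2f6 in class 2 (10.7 and 7.95), Nr1h2, the ubiquitous oxysterol receptor, in class 13 (6.29 and 9.08), Rara in class 13 (7.87 and 6.69), Rarg in class 13 (7.08 and 7.42) and Nr4a2 in class 1 (6.59 and 7.60). The windows of these genes span from 8.35 kb (Nr1h2) to 51.1 kb (Rara). Each of these windows overlaps that of another gene and shares reads with it, such as Thra for Nr1d1, Pold1 for Nr1h2 and Itgb7 for Rarg.

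Pparg and Vdr set the stromal-like class 6 apart by at least 1.5-fold in all 4 libraries, 2 of 42 receptors, where 10.1% of all genes did (2.8% higher and 7.34% lower in class 6). This comparison was chosen after the class levels were seen. Pparg stood at 276, 243, 89.8 and 152 CPM in class 6, from 30, 64, 30 and 67 reads, against 39.2, 38.8, 40.9 and 34.8 CPM in the other classes (fetal 1, fetal 2, adult 1, adult 2). Vdr was lower in class 6, at 36.7, 45.5, 71.8 and 54.4 CPM, from 4, 12, 24 and 24 reads, against 86.5, 98.1, 165 and 152 CPM. The same direction in each library follows from the rule by which the 2 genes were picked.

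Companion genes of the receptors were counted whole in 4 lists. These lists were chosen with earlier results of these data known, so their shares beside those of all genes are descriptions only. Of 22 genes known as receptor targets, 10 differed by stage, 9 lower and 1 higher in the fetus, where 22.2% of all gene spans passed (10.9% lower), with a median log2 fold change of −0.32 against 0.01 for all genes. Among luminal nuclei 12 of 21 passed, 11 lower and 1 higher, against 15.8% of all genes (8.05% lower), with a median of −0.50 against 0.00. Among basal-like nuclei 2 of 21 passed, both lower, against 6.16% of all genes. In luminal nuclei Scd1, a fatty acid desaturase, stood at 25.7 and 32.9 CPM in the fetus and 104 and 111 CPM in the adult (log2 fold change −1.84, SE 0.17, edgeR adjusted p = 2.65e-07). Plin2, the coat protein of lipid droplets, stood at 17.1 and 15.6 against 41.2 and 77.3 CPM (−1.87, SE 0.26), and the fatty acid carrier Cd36 at 16.7 and 32.9 against 49.3 and 44.4 CPM (−0.83, SE 0.24). All 3 serve lipid handling and have regulators besides nuclear receptors.

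Of 23 genes of ligand supply, 11 differed by stage, 7 higher and 4 lower in the fetus, against 22.2% of all gene spans. Among luminal nuclei 8 of 23 did, 4 in each direction, against 15.8% of all genes, and among basal-like nuclei 5 of 22, 2 higher and 3 lower, against 6.16%. Cyp26c1, which degrades retinoic acid, stood at 23.2 and 22.0 CPM in the fetus and 6.92 and 7.68 CPM in the adult (log2 fold change 1.62, SE 0.22, edgeR adjusted p = 0.000233). It was higher in the fetus within basal-like (1.83) and luminal nuclei (2.41) as well. Aldh1a3, which makes retinoic acid and is also one of the luminal progenitor markers used above, was higher in the fetus by 0.88. Cyp24a1, which inactivates vitamin D and is a known target of Vdr, was lower in the fetus by 0.85 among luminal nuclei. A link to the lower Vdr span was not tested. Of the thyroid hormone deiodinases, Dio1, which can activate the hormone, stood at 2.79 and 6.50 against 16.1 and 15.8 CPM (−1.65, SE 0.32), and the inactivating Dio3 at 9.88 and 8.72 against 1.80 and 4.23 CPM (1.58, SE 0.43).
Of 15 clock partners, 5 differed, 4 lower and 1 higher in the fetus, against 22.2% of all gene spans, among them Per2 (−0.40), Clock (−0.48) and Bhlhe41 (−0.49) lower and Ciart (0.47) higher. Among luminal nuclei 4 of 15 passed, all lower, against 15.8% of all genes: Per2 (−0.55), Cry1 (−0.54), Bhlhe40 (−0.51) and Bhlhe41 (−0.51). Among basal-like nuclei 2 of 15 passed, against 6.16%: Npas2, a paralogue of Clock, was higher in the fetus (0.76) and Bhlhe41 lower (−0.72). The hour at which tissue was taken is not given in the sources used here. Of 22 coregulators 5 differed, 4 lower and 1 higher, a share near the 22.2% of all gene spans, with Lcor at −0.54 and Ncoa2 at −0.43.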

How the data were processed

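Single-nucleus ATAC-seq reads of 4 libraries (2 fetal, 2 adult) were used as the authors deposited them. Per the submitters' processing notes, Bowtie2, MACS2, bedtools and the mm10 build were used; versions and filters are not given in the sources used here. The deposited read lists carry a nucleus barcode per read, and the deposited count of reads per nucleus matched them. The deposited table also gives each nucleus a class number and, for each motif, a chromVAR deviation score, which the authors computed per nucleus relative to matched background peaks. A deposited co-accessibility score from Cicero links pairs of regions. Promoter and distal regions are the authors' lists. No per-sample column was left unused (0 columns).

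Reads of listed nuclei were summed per library, because nuclei are not replicates, over gene spans with 2 kb on either side (RefSeq, GRCm38.p6) and over the deposited regions. Features averaging 10 or more reads over the libraries were tested with edgeR 4.0.16 (TMM, quasi-likelihood test) over all features with Benjamini-Hochberg adjustment; DESeq2 1.42.0 was an alternative. Library means of motif scores were tested with limma 3.58.1 over all 427 columns. Lineages within a stage were compared by fold only. R 4.3.3 and Python 3.11.15 were used, and the fits were tested on simulated data with known changes. The receptors, their companion lists and the marker lists were chosen with earlier results of these data known. Values in every library are given for receptors that passed a stage test or the 1.5-fold rule between lineages, and for the 6 highest levels per kb. They are also given for the 8 promoter regions that passed and the 10 largest distal differences, all averaging 20 or more reads. Some companion genes are counted in their lists but not reported by name here. Overlapping windows share reads. Alternatives covered scaling, low-count filters, window size, left-out libraries, class 6, the replicate number and the clusters of a lineage.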

Additional observations from a re-analysis of the deposited data

Results flagged for a closer look

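For 2 receptors the stage difference over the gene span itself differed between lineages, as tested with an interaction term in edgeR over 17068 genes, of which 6.08% passed. The basal-like change minus the luminal change was 0.91 on the log2 scale for Rora (SE 0.17, edgeR adjusted p = 7.39e-06). Rora stood at 210 and 234 CPM in fetal luminal-like and 373 and 364 CPM in adult luminal progenitor-like nuclei, while its basal-like difference was 0.22. The same quantity was 0.77 for Ppard (SE 0.21, edgeR adjusted p = 0.00889), with a stage difference of 0.25 in basal-like and −0.53 in luminal nuclei. The Ppard difference in luminal nuclei was −0.21 with class 3 alone as the adult side.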

How the results depend on the processing

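No result of the alternatives run changed direction. Where a count of receptors moved, the cause was not tested. Over gene spans the 9 receptors (22.2% of all spans passed) became 7 with DESeq2 (16.6%) and 10 with a minimum of 50 reads (25%). Nr3c2, Esrra and Nr5a1 lost their call without some library, as given above. The 8 promoter regions (21.5% of all promoter regions passed) became 7 with DESeq2 (14.1%). Those of Nr4a1, Nr2e1, Nr2f1 and Nr2c1 failed without some library, as given above. The 148 distal regions (35.3% of all distal regions passed) became 86 with DESeq2 (20.2%). With a minimum of 50 reads, which tests fewer regions, 47 of 94 passed (53.5% of all). Within basal-like classes the 2 receptors became 10 with class 1 alone (10.7% of all genes passed) and 1 with class 8 alone (1.14%) as the adult side, 4 with no filter on low counts (5.71%), 5 with scaling by total reads (6.1%), and 2 to 4 without each library (3.27% to 5.37%). Within luminal classes the 10 became 6 with class 3 alone (9.52% of all genes), 18 with class 7 alone (25.5%), and 6 to 9 without each library (8.25% to 14.3%). By the fold rule, the 5 receptors between adult basal-like and luminal progenitor-like nuclei became 9 in the promoter-rich clusters (20% of all genes). At 2-fold the count was 0 (6.38% of all genes). It was 11 in adult 1 alone (33.5%) and 12 in adult 2 alone (28.5%). The 8 between the adult luminal lineages became 3 in the promoter-poor clusters (12.7% of all genes) and 1 at 2-fold (5.72%). In either library alone they became 11 (25.4% of all genes in adult 1 and 24.5% in adult 2). The 1 between fetal lineages became 0 at 2-fold (1.16% of all genes). In either library alone it became 6 (29.2% of all genes in fetal 1 and 17.8% in fetal 2). The 27 motifs stayed 27 with medians over nuclei (66.3% of all motifs passed) and without class 6 (69.1%). Those with the smallest falls depended on single libraries, as given above. Each of the 10 named distal regions kept its call wherever it was tested; only 3 of them could be tested at the minimum of 50 reads. The labels do not say that a replicate number marks a shared litter or day, and with 2 libraries a stage the numbers were not taken as a pairing: same-numbered differences correlated at 0.267 over gene spans, 0.059 over promoters and 0.042 over distal regions. With a replicate block 17 receptors passed over gene spans (34.1% of all genes), 8 promoter (23.1% of all) and 140 distal regions (33.1%), 9 receptors within basal-like (8.75%) and 12 within luminal classes (22% of all genes), and 27 motifs (73.3% of all). Fetal replicate 1 held the fewest nuclei (882) and the fewest reads (6028168). Short or weakly open genes such as Nr0b1 and Nr0b2 could not be compared by class.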

Other observations

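At a deposited co-accessibility score of at least 0.25, 4 of 32 receptor promoter regions had a partner (12.5%), close to the 14.6% of all 19204 promoter regions. Esrra had 8 partners, 7 of them promoter regions, with a highest score of 0.373 at a distance of 58.0 kb. Rarg, Rxrb and Nr2f6 had 1 each, at 148, 89.6 and 189 kb, every one of them a promoter region. The score was deposited once for all nuclei and cannot be split by stage.

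Several receptors just missed the stage threshold over gene spans by edgeR: Nr2f6 (−0.41, adjusted p = 0.0508), Nr2f1 (0.49, adjusted p = 0.058) and the oestrogen receptor gene Esr2 (0.59, adjusted p = 0.062). In stromal-like class 6 Rora stood at 230, 497, 655 and 680 CPM, against 244, 261, 279 and 256 CPM in the other classes (fetal 1, fetal 2, adult 1, adult 2), higher in 3 of 4 libraries and level in fetal replicate 1.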
